A study of Homo sapiens with 2 samples.

Results

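Claudin and tight junction genes were examined in the RNA-seq data of 2 lung cancer cell lines. The genes were CLDN1, CLDN2, CLDN3, CLDN4, CLDN7, CLDN10, CLDN12 and CLDN18, which encode claudins, OCLN, which encodes occludin, and TJP1, which encodes a zonula occludens scaffold protein. They were taken by symbol, and all 10 were found among the 27685 genes listed, 1 row each. The paper describes RNA-seq of H2087 cells, used beside chromatin data to choose highly expressed genes for a search of variants. Its text does not name H596. One library was made from untreated H2087 cells and 1 from untreated H596 cells, both labelled lung adenocarcinoma and grown in the same medium with fetal bovine serum. Each library stands for 1 established line in 1 culture, so no difference below was set against a replicate, and no test was made.

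Tight junctions form a belt near the apical end of the lateral membranes of epithelial cells and control what passes between the cells. Claudins are membrane proteins that span the bilayer several times and build the strands of this belt, some sealing it and others forming pores for ions, so that the mix of claudins sets the permeability of an epithelium. Occludin sits in the same strands, and the zonula occludens proteins tie the tails of claudins and occludin to actin in the cytoplasm. In the lung, CLDN3, CLDN4, CLDN7 and CLDN18 are known as claudins of the airway or alveolar epithelium.

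The deposited estimated counts summed to 46961500 in H2087 and 55387847 in H596. Levels are given in FPKM, the fragments per kilobase of transcript scaled to the size of the library, and a bracketed or quoted 95% interval was carried over from the Wilson interval of the gene's share of the counts. Intervals of folds were exact binomial ones. All intervals cover counting error only, without the spread between cultures, and because it is not known how the counts were made they serve as a guide. Differences are given as H596 minus H2087 of log2(FPKM + 1), a scale that understates the difference of low genes, and folds as the ratio of the FPKM values. A gene was compared where its mean FPKM over the 2 libraries was at least 1, and was called where the difference was at least 1 in either direction, which is a 2-fold difference on that scale. Of all 13048 genes compared, 32.4% were called, 18.2% higher in H596 and 14.2% lower. The median difference of all genes compared was 0.12.

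Of the 10 claudin and tight junction genes, 8 were compared and 6 were called, 1 higher in H596 and 5 lower. Among all genes compared, 18.2% were called higher and 14.2% lower. CLDN1 was the gene higher in H596, and CLDN3, CLDN4, CLDN10, CLDN12 and OCLN were lower. CLDN7 and TJP1 differed by less than 2-fold, and CLDN2 and CLDN18 were too low to compare. The median difference of the 8 genes was -1.40. CLDN10 met the minimum level through H2087 only, so that it could enter the comparison only by being far lower in H596. In a bulk library, less RNA per cell and fewer cells that make the RNA cannot be told apart.

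**Figure D1:**
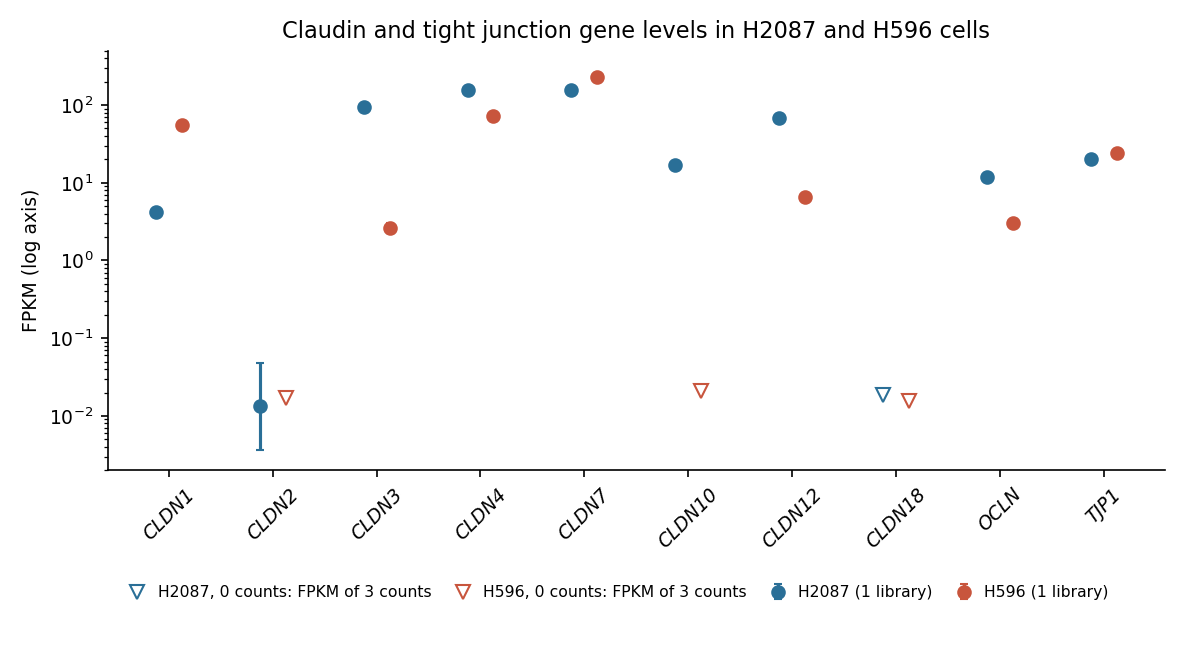
FPKM of each of the 10 genes in the H2087 library and in the H596 library, 1 point per library, on a log10 axis, with bars for the 95% counting interval. Open symbols mark the level that 3 counts would give where a library had 0 counts. CLDN4 and CLDN7 were high in both libraries, CLDN1 stood at 4.18 FPKM in H2087 and 55.2 FPKM in H596, and CLDN3 stood at 93.8 FPKM in H2087 and 2.63 FPKM in H596.

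CLDN4 and CLDN7 were the most abundant of the 10 genes in H2087, at 158 FPKM (95% interval, 156 to 161) and 155 FPKM (152 to 157), and their intervals overlapped. CLDN3 followed at 93.8 FPKM, CLDN12 at 67.9 FPKM, TJP1 at 20.4 FPKM, CLDN10 at 16.8 FPKM, OCLN at 11.8 FPKM and CLDN1 at 4.18 FPKM. Apart from the first pair, no neighbours in this order had overlapping intervals. In H596 the order was different. CLDN7 led with 226 FPKM (224 to 229), before CLDN4 at 72.6 FPKM, CLDN1 at 55.2 FPKM, TJP1 at 24.4 FPKM and CLDN12 at 6.64 FPKM. OCLN at 2.996 FPKM (2.82 to 3.18) and CLDN3 at 2.63 FPKM (2.28 to 3.03) came last among the genes with counts, and their intervals overlapped.

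CLDN3 and CLDN4 are close relatives that both bind the enterotoxin of Clostridium perfringens, and the genes, each with 1 exon, lie next to each other on chromosome 7. In the GRCh37 (hg19) build of the tables, CLDN3 (gene 1365) lies on the minus strand at chr7:73183327-73184600 and CLDN4 (gene 1364) on the plus strand at chr7:73245193-73247023, with 60592 bases between them. CLDN3 had 5726 counts and 93.8 FPKM (91.4 to 96.2) in H2087, and 191 counts and 2.63 FPKM in H596. It was 35.6-fold lower in H596 (30.8 to 41.4), a log2 difference of -4.71, and its rank among all genes by FPKM went from 762 in H2087 to 10937 in H596. CLDN4 had 13880 counts in H2087 and 7541 counts in H596. Its level of 158 FPKM in H2087 was 2.18-fold above the 72.6 FPKM (71.0 to 74.2) in H596, with an interval of 2.12 to 2.24 for the fold and a log2 difference of -1.11. This was the smallest difference among the called genes, and on the TPM scale, where values sum to the same total in each library, it was -0.94 and below the threshold. CLDN4 was thus 1.69 times as abundant as CLDN3 in H2087 and 27.6 times as abundant in H596.

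The 250 bases upstream of the annotated starts of these neighbours are shown because the genes lie side by side and differed so unequally between the lines. They were read from GRCh37 in the direction of transcription, 5′ to 3′, and capitals mark CpG dinucleotides, the sites of DNA methylation. The window of CLDN3 lies at chr7:73184601-73184850 on the minus strand and that of CLDN4 at chr7:73244943-73245192 on the plus strand.
CLDN3: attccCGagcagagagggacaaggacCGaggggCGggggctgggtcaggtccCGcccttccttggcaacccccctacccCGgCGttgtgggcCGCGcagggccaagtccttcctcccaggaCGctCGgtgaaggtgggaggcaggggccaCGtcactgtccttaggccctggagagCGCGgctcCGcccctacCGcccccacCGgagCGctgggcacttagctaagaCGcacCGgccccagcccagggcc
CLDN4: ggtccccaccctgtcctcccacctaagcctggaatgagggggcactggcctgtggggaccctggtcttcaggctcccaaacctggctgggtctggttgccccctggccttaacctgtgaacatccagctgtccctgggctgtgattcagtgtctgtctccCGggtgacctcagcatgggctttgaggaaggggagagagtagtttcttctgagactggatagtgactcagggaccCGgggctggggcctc
The CLDN3 window held 19 CpG and had a GC content of 71.6%, whereas the CLDN4 window held 2 CpG at a GC content of 61.6%. The median over the 31434 upstream windows of the listed transcripts was 12 CpG and 58.4% GC. Of these windows, 65.6% held fewer CpG than that of CLDN3 and 11.7% held fewer than that of CLDN4. Relative to the number expected from the C and G content, the ratio was 0.594 for CLDN3, just under the median of 0.609, and 0.0846 for CLDN4, so the CpG count of CLDN3 went with its GC content. These counts are properties of the reference sequence, and methylation was not measured in the data used here.

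CLDN1, a sealing claudin without which the skin barrier fails in mice, was the only gene of the 10 that was called higher in H596. CLDN1 (gene 9076, chr3:190023490-190040235, minus strand) had 693 counts and 4.18 FPKM (3.88 to 4.51) in H2087, and 10817 counts and 55.2 FPKM (54.2 to 56.3) in H596. It was 13.2-fold higher in H596 (12.2 to 14.3), with a log2 difference of 3.44. By FPKM it ranked 9277 among all genes in H2087 and 1327 in H596. The contrast with CLDN3 was wide within each library: CLDN3 was 22.4 times as abundant as CLDN1 in H2087, and CLDN1 was 21.0 times as abundant as CLDN3 in H596. The window upstream of CLDN1, at chr3:190040236-190040485 on the minus strand, is shown beside that of CLDN3 because the levels of the genes went opposite ways.
CLDN1: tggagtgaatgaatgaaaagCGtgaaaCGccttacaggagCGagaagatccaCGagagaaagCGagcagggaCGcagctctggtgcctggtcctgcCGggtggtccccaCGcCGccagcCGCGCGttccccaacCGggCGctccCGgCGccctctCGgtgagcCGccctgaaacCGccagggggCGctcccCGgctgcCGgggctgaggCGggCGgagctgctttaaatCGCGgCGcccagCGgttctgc
It held 28 CpG at a GC content of 68.8%, and 84.5% of all upstream windows held fewer CpG. Its ratio of observed to expected CpG was 0.948, against 0.594 for CLDN3.

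CLDN7, a claudin of the basolateral membrane as well as of the junction, was high in both lines. CLDN7 (gene 1366, chr17:7163222-7166512, minus strand) had 14774 counts and 155 FPKM in H2087, and 24068 counts and 226 FPKM in H596. This was a 1.46-fold higher level in H596 (1.43 to 1.49) and a log2 difference of 0.55, below the threshold. CLDN7 ranked 429 among all genes in H2087 and 230 in H596. CLDN7 and CLDN4 were at nearly the same level in H2087, at a ratio of 0.979, while CLDN7 was 3.12 times as abundant as CLDN4 in H596. The last bases of CLDN7 overlap the end of ELP5, which is transcribed from the other strand.

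CLDN12 is an unusual claudin whose tail lacks the motif that binds the PDZ domains of zonula occludens proteins. CLDN12 (gene 9069, chr7:90032648-90045268, plus strand) had 11786 counts and 67.9 FPKM (66.7 to 69.1) in H2087, and 1366 counts and 6.64 FPKM (6.30 to 7.004) in H596. It was 10.2-fold lower in H596 (9.66 to 10.8), with a log2 difference of -3.17. Its rank was 1090 in H2087 and 8362 in H596. CLDN3 and CLDN12 lie on the same chromosome but far apart, and both were far lower in H596.

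CLDN10 has forms that start at different first exons and differ in the ions they let through: the a forms are pores for anions and the b form is a pore for cations. CLDN10 (gene 9071, chr13:96085853-96232010, plus strand) had 2011 counts and 16.8 FPKM (16.1 to 17.6) in H2087 and 0 counts in H596, where 3 counts would have given 0.0212 FPKM. The level in H596 was therefore at least 793-fold lower. All 2011 counts in H2087 were assigned to transcript NM_006984, the b form, and the a forms NM_182848 and NM_001160100 had 0 counts in both libraries. DZIP1 and the antisense gene CLDN10-AS1 overlap the CLDN10 locus and had 106 and 24 counts in H2087, and 6 and 0 counts in H596. The windows upstream of the starts of both forms are shown because counts were assigned to only 1 of these starts. The start of the a forms lies 119094 bases before that of the b form, with windows at chr13:96085603-96085852 and chr13:96204697-96204946 on the plus strand.
CLDN10 a: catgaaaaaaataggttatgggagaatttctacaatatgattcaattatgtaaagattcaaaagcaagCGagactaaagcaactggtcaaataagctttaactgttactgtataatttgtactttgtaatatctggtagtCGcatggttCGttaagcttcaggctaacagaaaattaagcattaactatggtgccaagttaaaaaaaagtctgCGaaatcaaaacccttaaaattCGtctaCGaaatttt
CLDN10 b: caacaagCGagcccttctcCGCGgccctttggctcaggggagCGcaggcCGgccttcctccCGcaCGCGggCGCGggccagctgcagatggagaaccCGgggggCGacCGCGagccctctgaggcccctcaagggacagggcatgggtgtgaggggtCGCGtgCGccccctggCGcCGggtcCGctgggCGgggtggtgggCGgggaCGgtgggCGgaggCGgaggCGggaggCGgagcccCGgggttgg
The window of the a forms held 6 CpG at a GC content of 31.6%, and the window of the b form held 28 CpG at 77.2%. The ratios of observed to expected CpG were 0.969 and 0.780.

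CLDN18 and CLDN2 were near or at the limit of detection. CLDN18 has a lung form and a stomach form that start at different first exons, and the stomach form is the target of antibodies used against gastric cancer. CLDN18 (gene 51208, chr3:137717658-137752494, plus strand) had 0 counts in both libraries, for transcript NM_016369, the lung form, and for NM_001002026, the stomach form, whose starts lie 11348 bases apart. At these depths 3 counts would have given 0.0187 FPKM in H2087 and 0.0158 FPKM in H596, so a count of 0 allows levels up to about these values. CLDN2, a pore for cations in leaky epithelia, lies on the X chromosome (gene 9075, chrX:106143394-106174091). It had 2 counts in H2087, 0.0132 FPKM (0.00363 to 0.0483), and 0 counts in H596, where 3 counts would have given 0.0168 FPKM. No fold was formed for either gene.

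OCLN and TJP1 are the members outside the claudin family. OCLN (gene 100506658, chr5:68788119-68853931, plus strand) had 3597 counts and 11.8 FPKM (11.4 to 12.2) in H2087, and 1068 counts and 2.996 FPKM in H596. It was 3.94-fold lower in H596 (3.68 to 4.22), with a log2 difference of -1.68. Part of OCLN is duplicated on the same chromosome: 73.8% of the bases of its leading transcript, 4752 of 6438, had a copy that was at least 95% identical between positions 69705589 and 70378819 of chromosome 5. How reads that match both places were assigned is not given in the sources used here, so the level of OCLN is uncertain. LOC647859, a listed gene at 70370030 to 70388897 that overlaps the end of that region, had 242 counts and 8.71 FPKM in H2087. In H596 it had 165 counts and 5.01 FPKM, 1.74-fold lower. How much of the copied sequence it covers was not determined. None of the other 9 genes had such a copy.

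TJP1, the scaffold that binds claudin tails through its PDZ domains, was close to the same level in both lines. TJP1 (gene 7082, chr15:29991571-30261002, minus strand) had 7707 counts and 20.4 FPKM (19.9 to 20.8) in H2087, and 10894 counts and 24.4 FPKM (23.9 to 24.8) in H596. It was 1.20-fold higher in H596 (1.16 to 1.23), a log2 difference of 0.25. Within a library, TJP1 was 1.73 times as abundant as OCLN in H2087 and 8.13 times as abundant in H596.

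**Figure D2:**
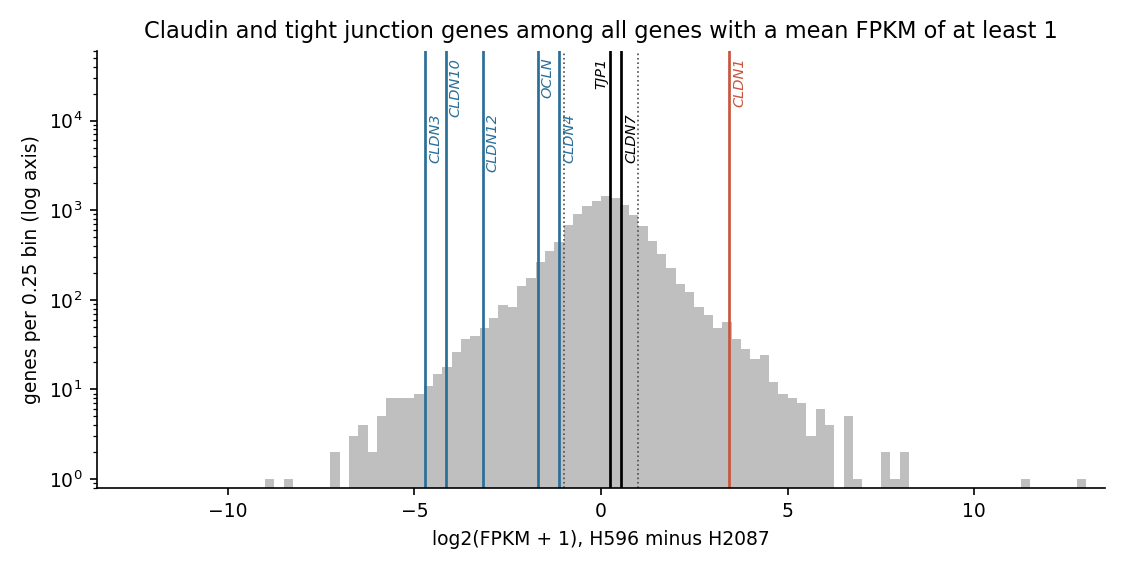
Histogram of the log2(FPKM + 1) difference, H596 minus H2087, of the 13048 genes compared, with the number of genes on a log10 axis and vertical lines at the 8 claudin and tight junction genes compared. Dotted lines mark the 2-fold threshold. CLDN3, CLDN10 and CLDN12 lie at -4.71, -4.16 and -3.17, and CLDN1 lies at 3.44 on the opposite side.

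The whole claudin family was summed to see how the mix differed. Of 24 claudin genes listed, 9 stood at 1 FPKM or more in H2087 and 10 did in H596, while 10 had 0 counts in H2087 and 9 in H596. Their FPKM summed to 505 in H2087 and 387 in H596, of which the 8 claudins described above held 98.2% and 93.8%. The FPKM of all genes do not sum to the same total in the 2 libraries. On the TPM scale the claudin sums were 1078 in H2087 and 939 in H596, which lie closer together. In H2087 the sum was spread over CLDN4 with 31.3%, CLDN7 with 30.7%, CLDN3 with 18.6% and CLDN12 with 13.4%, and CLDN10 added 3.34%. In H596 CLDN7 alone held 58.5%, followed by CLDN4 with 18.7% and CLDN1 with 14.3%. CLDN3 held 0.679% there and CLDN12 held 1.71%.

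**Figure D3:**
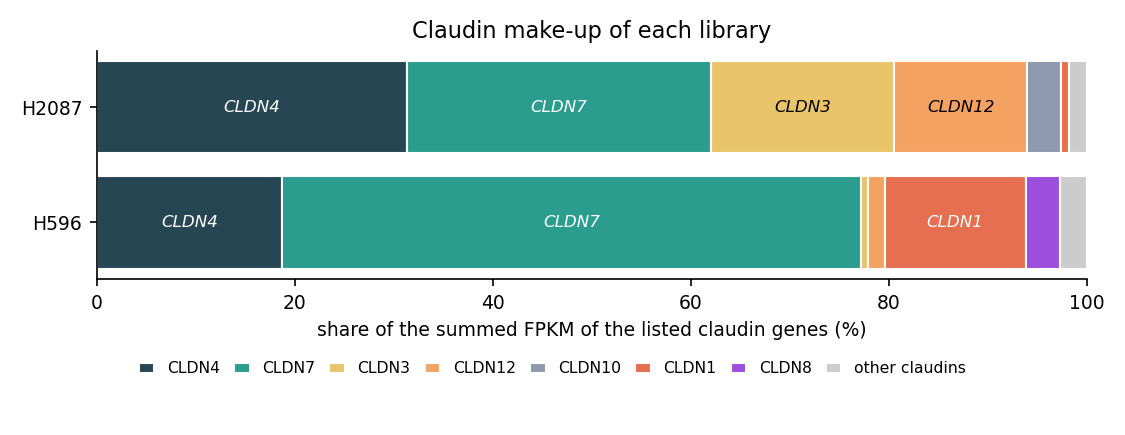
Share of the summed FPKM of the 24 listed claudin genes held by each claudin, in percent, as 1 stacked bar per library. CLDN7 held 30.7% in H2087 and 58.5% in H596, CLDN3 and CLDN12 filled 18.6% and 13.4% of the H2087 bar, and CLDN1 filled 14.3% of the H596 bar.

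Of the 16 further claudins, 4 were compared and 1 was called, too few genes to set against the 32.4% of all genes. The called gene met the minimum level through H596 only and had to differ once it was compared. CLDN8, a sealing claudin of the distal nephron and colon, had 13 counts and 0.117 FPKM in H2087 and 1633 counts and 13.4 FPKM in H596, 115-fold higher (67.0 to 216). It made up 3.46% of the claudin sum in H596 and 0.0231% in H2087. CLDN16, a claudin of magnesium reabsorption in the kidney, lies 65425 bases from CLDN1 and had 0 counts in H2087 and 64 counts in H596, at least 18.0-fold higher, but it stayed under the level needed for comparison and was not called. Another 6 of these claudins had 0 counts in both libraries, and the median difference of the 4 compared was 0.21.

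The listed transcripts of a gene were compared for CLDN7, CLDN12, OCLN and TJP1, where more than 1 was in use. For CLDN7, NM_001307 was the main transcript in both libraries, at 149 FPKM in H2087 and 171 FPKM in H596. The shorter NM_001185022, which starts 248 bases upstream and is 567 bases shorter, had 359 counts and 5.19 FPKM in H2087 and 4450 counts and 54.4 FPKM in H596. Its share of the gene was 3.35% in H2087 and 24.0% in H596, so most of the surplus of CLDN7 in H596 was assigned to it. For OCLN, NM_002538 held 64.3% in H2087 and 28.6% in H596, while NM_001205254, which starts 471 bases downstream, held 35.7% and 71.4%. NM_002538 stood at 7.59 FPKM in H2087 and 0.858 FPKM in H596, and NM_001205254 at 4.22 FPKM and 2.14 FPKM. Both OCLN transcripts were lower in H596.

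Transcript use differed less for CLDN12 and TJP1. NM_012129 held 71.7% of CLDN12 in H2087 and 74.6% in H596, NM_001185073 held 20.5% and 20.3%, and NM_001185072 held 7.89% and 5.11%. For TJP1, NM_003257 held 31.4% and 28.9%, NM_175610 held 29.9% and 36.9%, and NM_001330239 held 37.1% and 33.5%. NM_175610 is 240 bases shorter than NM_003257, and an exon of 240 bases is annotated at chr15:30011981-30012220. This is the cassette exon known as the alpha domain, whose inclusion differs between epithelial and other junctions. Transcript levels are estimates from reads that the transcripts largely share, and no error was given for this split.

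**Figure D4:**
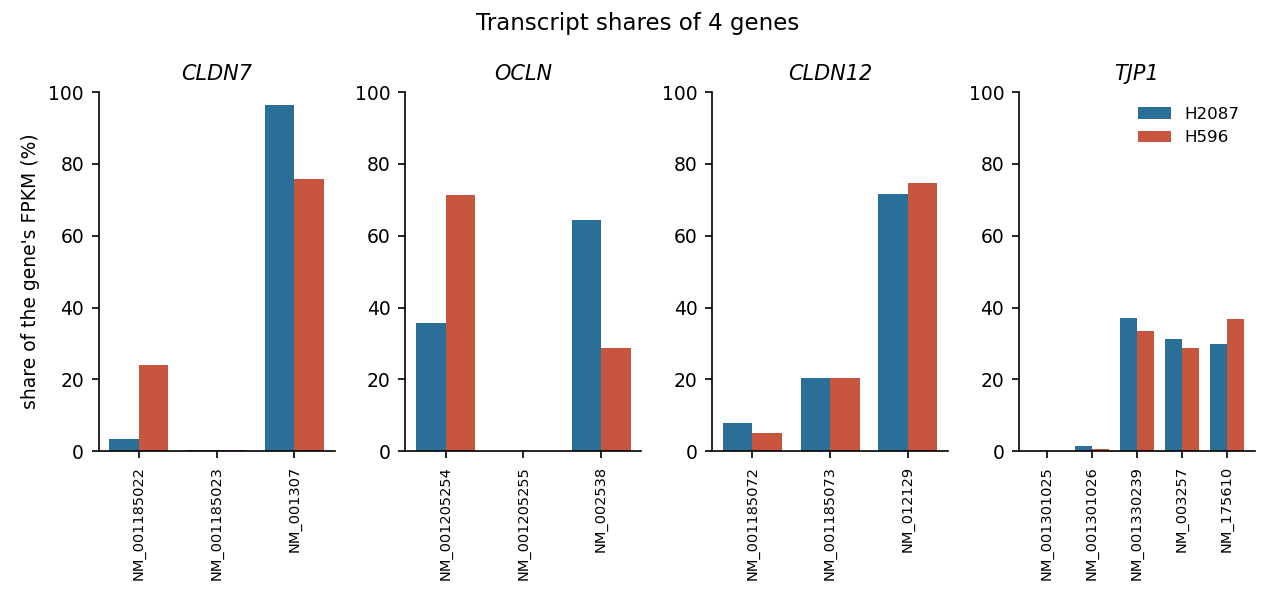
Share of the gene's FPKM held by each listed transcript of CLDN7, CLDN12, OCLN and TJP1, in percent, with 1 bar per library. NM_001185022 held 3.35% of CLDN7 in H2087 and 24.0% in H596, and the larger share of OCLN passed from NM_002538 with 64.3% in H2087 to NM_001205254 with 71.4% in H596.

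The genes around each of the 10 were used to ask whether the difference was shared along the chromosome. For each, the 20 nearest compared genes, 10 on each side, were taken, leaving out claudins, the genes described here and genes listed at more than 1 place. The counts below stand beside 32.4% called among all genes compared, 18.2% higher in H596 and 14.2% lower. CLDN3 and CLDN4 had the same neighbours, from 72467818 to 74306731 on chromosome 7, with a median difference of -0.64, 7 called lower and 0 called higher. CLDN3 was lower than all 20, whereas CLDN4 was lower than 13 and above 7 of them. The nearest compared genes were all called lower, at -1.86 to -3.32. These were BUD23, STX1A and ABHD11 on 1 side and METTL27 and LIMK1 on the other. All 20 neighbours of OCLN, between 68389776 and 71505397 on chromosome 5, were below 0, among them MARVELD2 by the least, with a median of -0.85 and 9 called lower, and 1 of them, MAP1B, was lower than OCLN. One of the 20 is LOC647859, which overlaps the end of the copied region and shares sequence with OCLN, and the GTF2H2 genes among them are copies of each other. Around CLDN12 the median was -0.14, with 4 genes called higher and 4 lower. The 4 called lower, STEAP4, STEAP1, STEAP2 and GTPBP10, were the nearest compared genes on 1 side. Of these, STEAP1 at -3.58 was lower than CLDN12. The nearest gene on the other side, FZD1 at 2.33, was called higher. Around CLDN10 the median was 0.27, with 2 genes called higher, 5 lower and none as low as CLDN10. Around CLDN1 the median was 0.48, 9 genes were called higher and 5 lower, and 19 of 20 genes were below it, the exception being TP63. The medians around CLDN7 and TJP1 were -0.00 and 0.30. Around CLDN2 the median was 1.15, with 19 of 20 genes above 0, 11 called higher and 1 lower, and around CLDN18 it was 0.47, while these claudins themselves were at or near 0 counts. Copy number was not measured in the data used here, and its part in these differences was not tested.

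**Figure D5:**
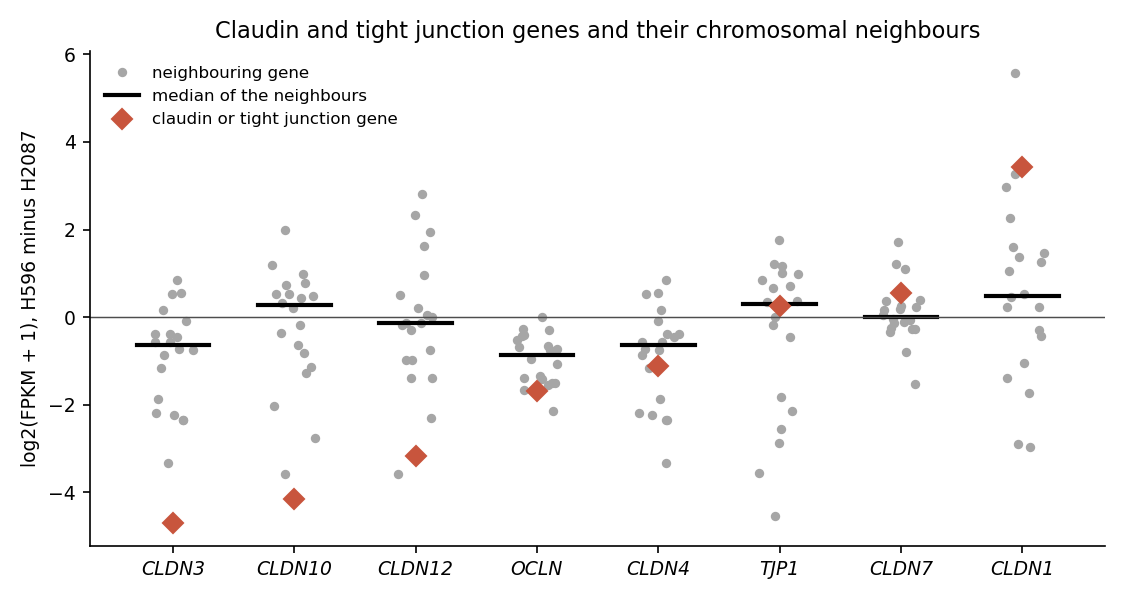
Log2(FPKM + 1) difference, H596 minus H2087, of each compared gene of the 10 and of the 20 nearest compared genes on the chromosome, claudins and the genes described here left out. The neighbours of OCLN all lie below 0 with a median of -0.85, and CLDN3 at -4.71 and CLDN10 at -4.16 lie below all of their neighbours.

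The remaining genes of the tight junction list, 50 in all with the 16 further claudins, were counted by role. Of these, 32 were compared and 13 were called, 9 higher in H596 and 4 lower, beside 32.4% of all genes, and the median difference was 0.40. CLDN8, AMOT and CGNL1, among the 13 called, met the minimum level through 1 line only, which favours a large difference. Among the adhesion molecules of the immunoglobulin type, 3 were compared and 2 were called, both higher in H596. F11R, which encodes the junctional adhesion molecule A, was at 19.5 FPKM in H2087 and 70.7 FPKM in H596, 3.62-fold higher (3.51 to 3.74). CXADR, the coxsackievirus and adenovirus receptor, was at 3.01 FPKM and 25.3 FPKM, 8.42-fold higher (7.75 to 9.15). Of the 4 compared proteins of tricellular contacts and of the occludin family, 1 was called: ILDR1, an angulin of tricellular contacts, was at 5.03 FPKM and 13.8 FPKM, 2.74-fold higher. Its relative LSR was the highest of that group, at 60.2 FPKM and 71.1 FPKM, and MARVELD2, which encodes tricellulin, was at 9.22 FPKM and 9.18 FPKM. OCLN was thus the one compared gene of the occludin family, with MARVELD2 and MARVELD3, that was called.

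The cytoplasmic plaque held calls in both directions. Of 12 plaque genes compared, 6 were called, 4 higher and 2 lower, beside 32.4% called among all genes. Their median difference was 0.52. Of these 6, AMOT met the minimum level through H596 only and CGNL1 through H2087 only. The angiomotins, which link junctions to the Hippo pathway, were all higher in H596. AMOTL1 was at 3.67 FPKM in H2087 and 46.3 FPKM in H596, AMOT at 0.756 FPKM and 10.5 FPKM, and AMOTL2 at 9.33 FPKM and 52.3 FPKM. TJAP1 was 2.59-fold higher. The most abundant plaque gene, YBX3, which encodes a DNA- and RNA-binding protein that also sits at junctions, was at 127 FPKM and 149 FPKM and was not called. CGNL1, which encodes paracingulin, was 75.0-fold lower, at 7.48 FPKM in H2087 and 0.0997 FPKM in H596, while its relative CGN was at 14.0 FPKM and 11.6 FPKM and was not called. MAGI1, a PDZ scaffold, was 2.74-fold lower. TJP3, a relative of TJP1, was at 10.9 FPKM and 19.9 FPKM and was not called either, but reached a difference of 1.02 on the TPM scale.

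Of 9 compared genes of the apical polarity complexes, 3 were called, a share near the 32.4% of all genes and so no result about the group. PARD3, the core of the PAR complex that places the junction, was at 102 FPKM in H2087 and 12.2 FPKM in H596, 8.36-fold lower, and PARD6A, of the same complex, was 2.86-fold lower. MPDZ, a scaffold with many PDZ domains that binds claudins, was 3.67-fold higher. The kinase of the PAR complex, PRKCI, was at 21.2 FPKM and 31.0 FPKM, and CRB3, the epithelial Crumbs protein, was at 19.4 FPKM and 22.7 FPKM.

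Transcription factors known to act on claudin genes or on epithelial identity were listed as well, and of 12 listed, 6 were compared and 5 called, against 32.4% called among all genes. Of these 5, NKX2-1, TP63, SNAI2 and GRHL3 met the minimum level through 1 line only, which favours a large difference, so the count says nothing about the list. NKX2-1, the factor of the peripheral lung lineage, had 12092 counts and 110 FPKM in H2087 and 66 counts and 0.508 FPKM in H596, 217-fold lower. TP63, the factor of basal and squamous epithelium, was at 0.183 FPKM and 55.2 FPKM, 302-fold higher. SNAI2, a repressor of epithelial genes, was at 0.890 FPKM and 27.9 FPKM, 31.4-fold higher. Among the grainyhead factors, which maintain epithelial junctions, GRHL3 was at 0.935 FPKM and 11.5 FPKM, 12.3-fold higher, and GRHL2 was at 16.8 FPKM and 37.3 FPKM, 2.22-fold higher, with a difference that came to 0.98 after TMM scaling. GRHL1 was at 16.8 FPKM and 19.1 FPKM. ZEB1, a repressor of junction genes, had 247 counts in H2087 and 0 counts in H596, both under the level needed for comparison. With 2 libraries, no relation between a factor and a claudin was computed.

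Letters known from the binding sites of such factors were searched on both strands in the upstream windows of the listed starts. The E-box CAGGTG, bound by repressors of the SNAI and ZEB families, was in 18.6% of all 31434 windows and in 4 of the 19 windows of the genes described here. It lay 161 bases before the start in CLDN12, 99 bases before the stomach start of CLDN18, 249 and 106 bases before the OCLN start of NM_001205254, and 204 bases before the TJP1 start of NM_001301026. The grainyhead core AACCGGTT, in 0.127% of all windows, and the TATA box letters TATAAA, in 9.73%, were in none of the 19. These letter counts describe the reference sequence in these windows and nothing beyond them.

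Markers were read to see what the libraries held. The epithelial markers EPCAM, CDH1, KRT8 and KRT18 were present in both, with CDH1, which encodes E-cadherin, at 52.3 FPKM in H2087 and 59.6 FPKM in H596, and EPCAM at 375 FPKM and 65.0 FPKM. Summed, these markers stood at 6527 FPKM in H2087 and 894 FPKM in H596, most of it from the 2 keratins. KRT8 was at 2493 FPKM in H2087 and 536 FPKM in H596, and KRT18 at 3607 FPKM and 234 FPKM. Of the adenocarcinoma markers, KRT7 was high in both, at 791 FPKM and 608 FPKM, but NKX2-1 and NAPSA, at 21.9 FPKM in H2087 and 0.0645 FPKM in H596, were near absent from H596, and SFTPB was at or near 0 in both. All 4 squamous markers, TP63, KRT5, KRT6A and DSG3, were higher in H596, where they summed to 249 FPKM against 1.66 FPKM in H2087. The label lung adenocarcinoma thus goes with its markers in H2087 in part and goes against most of them in H596. The part of these lineage markers in the claudin differences was not tested. The leukocyte markers PTPRC and CD3E had 0 counts in both libraries, CD68 was at 128 FPKM and 25.6 FPKM, and the endothelial markers summed to 0.413 FPKM and 0.816 FPKM. The stromal markers summed to 3.898 FPKM and 10.7 FPKM, most of it COL1A1 in H2087 and DCN in H596.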

How the data were processed

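RNA-seq of 1 untreated H2087 and 1 untreated H596 culture was used. Per the labels, total RNA was isolated with TRIzol and stranded mRNA libraries were made. Per the submitters' processing notes, bcl2fastq 1.8.4, Trimmomatic, HISAT2 2.0.5 and StringTie 1.3.3b were used, with the builds GRCh37 and hg19. The estimated counts deposited by the authors, whole numbers per gene and transcript, were taken as rounded expected counts, since how they were derived, whether they count reads or pairs and whether strand was used in counting are not given in the sources used here. FPKM, as deposited by the authors, is scaled to transcript length and library size. Library totals were the sums of the gene counts.

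The 10 genes were selected by symbol, and the differences, thresholds and intervals were computed as given with the results, with Python 3.11.15, numpy 2.4.6, pandas 2.3.3 and scipy 1.17.1. TMM factors came from edgeR 4.0.16 in R 4.3.3. The calling step was tested on simulated data. Named were all 10 genes, the called genes and the most abundant gene of each role list, regulators, markers and transcripts with at least 5% of a gene. Other relatives and neighbours were picked with their values known. The 10 genes and lists were chosen with earlier results of these data known. Upstream windows of 250 bases were read from GRCh37 with strands from GENCODE, found for 57684 of 63714 transcripts, and copies were sought with blastn 2.17.0. The window length, CpG counts and TATA letters were chosen after seeing the data. Protein sequences were not used here. Alternatives changed the pseudocount, scaling, minimum level, fold, unit or transcript choice.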

Additional observations from a re-analysis of the deposited data

How the results depend on the processing

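Among the 10 genes, 6 were called with a pseudocount of 0.1, with TMM scaling, with centring on the median gene, with no minimum level, with CPM and with a 1.5-fold threshold. With TPM 5 were called, because CLDN4 came to -0.94. A 4-fold threshold and a minimum mean FPKM of 10 left 4 each, by their construction. Of all genes, 37.9% were called with a pseudocount of 0.1, 32.0% with TMM scaling, 31.9% with centring and 35.4% with CPM. With no minimum level 16.6% were called, with TPM 37.5% and at 1.5-fold 54.6%. At 4-fold 10.1% were called, and 29.6% at a minimum mean FPKM of 10. Over the alternative scales CLDN1 ranged from 3.32 to 3.76, CLDN3 from -5.10 to -4.71, CLDN10 from -7.40 to -4.16, CLDN12 from -3.33 to -3.06, OCLN from -1.94 to -1.45 and CLDN7 from 0.20 to 0.73, and no sign of a compared gene turned. Of the 62 tight junction genes and regulators, 38 were compared and 18 called, beside 32.4% of all genes. Among those called, CLDN8, AMOT, CGNL1, NKX2-1, TP63, SNAI2 and GRHL3 met the minimum level through 1 line only, which favours a large difference. At a 4-fold threshold the count came to 11 of 38, beside 10.1% of all genes. All of the genes just named were among these 11, so this count is no result about the list. With a minimum mean FPKM of 10 it came to 10 of 21, beside 29.6%. Without the minimum level it was 19 of 62, beside 16.6%. GRHL2 was not called with TMM scaling (0.98) or centring (0.99), and MPDZ was not called (0.84) when each gene's highest transcript was used. The median gene stood at 0.12, at -0.00 with TMM scaling and at 0.30 with TPM. No paired analysis was possible because there was 1 library of H2087 and 1 of H596, and neither could be left out. Depth set the limits of CLDN2, CLDN18 and CLDN10 in H596.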
